A study of Mus musculus with 6 samples.

Results

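Of the 33778 probe sets bright enough to be tested on these arrays, 175 (0.518%) read lower after mrhl siRNA by a rule with 3 conditions, and these 175 are described here. The mean log2 level over the 6 arrays had to be at or above 3.62, the 25th percentile of the 45037 probe sets that are not controls. The highest of the 3 mrhl siRNA values had to lie below the lowest of the 3 scrambled siRNA values, and the difference of the group means had to be at least 1.5-fold. Members were thus chosen by their levels and by the contrast itself, so the differences of these probe sets are given as a description, without a test, and support nothing. The probe table paired 140 of the 175 with exactly 1 symbol, standing for 135 genes; 33 had no symbol and 2 had several.

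GC1-Spg cells, the source of all RNA here, are an immortalised line of mouse spermatogonial origin. The control cultures received a scrambled siRNA at 100 nM and the other cultures siRNA against mrhl at 100 nM, and both were harvested at 44 h. Each group held 3 biological replicates on 1-colour Affymetrix arrays, and no untransfected culture was analysed here. Silencing of mrhl was checked by quantitative PCR, per the design text, and the level of mrhl itself was not analysed here. Values per array are listed below in the order of replicate numbers 1, 2 and 3.

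The RNA mrhl is a noncoding transcript of the nucleus that comes from an intron of Phkb and is known to bind the RNA helicase Ddx5 and to restrain Wnt signalling in spermatogonial cells. A small interfering RNA loads onto an Argonaute protein and directs cleavage of the matching transcript. A probe set reads 1 stretch of a transcript, usually near its 3' end, so different probe sets of a gene can read different transcript forms.

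The deposited values carried no detection calls here, so the level is the only sign of whether a probe set read a transcript. Members lay low: their median level over all arrays was 4.27 on the log2 scale, against 6.32 for all tested probe sets. Under the median level of all probe sets, 5.23, lay 137 of the 175 members (78.3%), where 33.3% of the tested probe sets lay. In 26 members both group means were at or above 5.23; these are called bright below. In 60 members the mean after mrhl siRNA was under 3.62, the level limit itself; these are called dim, and the remaining 89 lay between. For the dim members the median signal on the linear scale was 18.8 units in the controls and 10.4 after mrhl siRNA, and for the bright ones it was 115 and 69.1. Differences ran from -1.70 to -0.59 in the dim members (median -0.80), from -1.41 to -0.59 in those between (median -0.67) and from -1.02 to -0.59 in the bright ones (median -0.64).

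**Figure D1:**
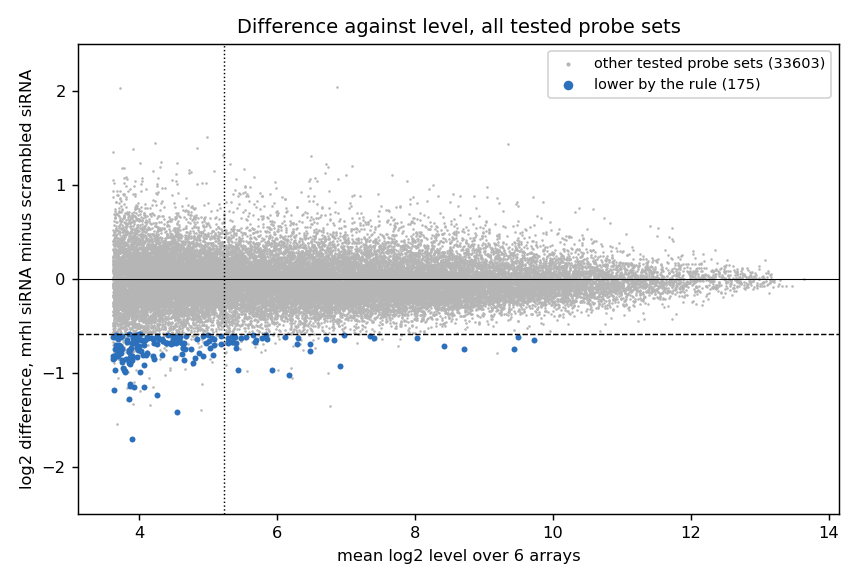
Log2 difference (mrhl siRNA minus scrambled siRNA, vertical axis) against mean log2 level over 6 arrays (horizontal axis) for all tested probe sets, with the 175 members in blue. The dashed line is the 1.5-fold limit and the dotted line the median level of 5.23; most blue points, 137 of 175, lie left of the dotted line.

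The share of probe sets that met the rule went down with the level. With the tested probe sets divided into 5 equal parts by level, in the dimmest part, from 3.62 to 4.56, it was 1.61% (109 of 6756), and in the next part 0.607%. It was 0.252% in the middle part and 0.0592% (4 probe sets) in each of the 2 brightest. The median standard deviation within a group went down over the same parts from 0.31 to 0.14. Without the size limit the shares had another shape: groups that did not overlap, with mrhl siRNA lower, made up 5.15% of the dimmest part, 7.14% of the second brightest and 6.62% of the brightest, and 5.82% of all tested probe sets. The mirror shares, with mrhl siRNA higher by any size, were 3.48%, 2.13% and 2.46% in the same 3 parts, and both directions together made up 8.4% of all tested probe sets. In the mirror direction, higher after mrhl siRNA, 139 probe sets (0.412%) met the same limits. With overlap allowed, 1.22% of the tested probe sets (413) were at least 1.5-fold lower. In bulk RNA, fewer cells of a kind and less RNA per cell cannot be told apart.

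**Figure D2:**
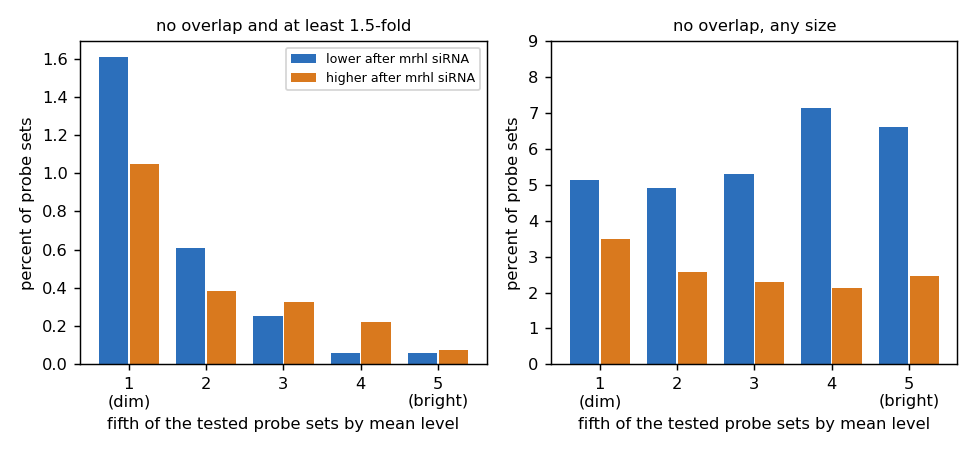
Percent of probe sets (vertical axes) whose groups do not overlap, with a difference of at least 1.5-fold on the left and of any size on the right, in 5 equal parts of the tested probe sets by mean level (horizontal axes). Blue bars are lower and orange bars higher after mrhl siRNA; on the left the blue bars go from 1.61% to 0.0592%, on the right they lie between 4.91% and 7.14%.

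The limma fit over all 33778 tested probe sets gave 0 with an adjusted p under 0.05 (0%), so none of the 175 passed; 1163 had an unadjusted p under 0.05. The smallest adjusted p of a member was 0.965 (limma), and 0.487 with the replicate number as a block (limma). The block raised the count at an unadjusted p under 0.05 to 3411, with 0 past the threshold.

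The bright members with the clearest separation encode an organelle protein each. Mrpl32, a protein of the large subunit of the mitochondrial ribosome, read 9.67, 9.85 and 9.91 after scrambled siRNA and 9.03, 9.12 and 9.05 after mrhl siRNA. Ostm1, the accessory subunit of the lysosomal chloride transporter ClC-7, read 8.99, 9.12 and 9.12 in the controls and 8.22, 8.32 and 8.45 after mrhl siRNA. In both genes the gap between the lowest control and the highest mrhl siRNA array was wide, 0.55 for Mrpl32 and 0.54 for Ostm1, against a median gap of 0.22 over all members. The log2 differences were -0.75 (SE 0.139) for each. They had the largest differences relative to the spread within groups of all named members, 7.66 and 7.80 pooled standard deviations for Mrpl32 and Ostm1. The dim Tcaf2, a regulator of a TRP channel, had 6.50, and the dim Slain1, a microtubule-end protein, had 6.13. Neither Mrpl32 nor Ostm1 had another tested probe set.

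Promoter stretches from the RefSeq table are shown for both of these genes and for Cxcl15 and Tmem167, each a gene with more than 1 member probe set. Each is the 150 bases before the annotated start, 5' to 3' on the strand of the gene, in build GRCm38.p6, and capitals mark matches to the motifs searched on both strands.
Mrpl32 (chr13:14613038-14613187, minus strand): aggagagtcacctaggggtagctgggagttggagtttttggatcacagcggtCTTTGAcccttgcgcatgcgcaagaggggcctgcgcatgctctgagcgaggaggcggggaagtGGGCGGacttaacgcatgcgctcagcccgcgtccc
Ostm1 (chr10:42678766-42678915, plus strand): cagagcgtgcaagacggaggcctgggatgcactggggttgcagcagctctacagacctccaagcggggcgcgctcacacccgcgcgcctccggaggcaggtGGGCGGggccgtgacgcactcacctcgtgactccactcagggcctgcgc
Cxcl15 (chr5:90794384-90794533, plus strand): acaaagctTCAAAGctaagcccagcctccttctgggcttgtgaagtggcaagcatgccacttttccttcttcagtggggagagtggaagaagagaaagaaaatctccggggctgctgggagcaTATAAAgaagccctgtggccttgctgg
Tmem167 (chr13:90089517-90089666, plus strand): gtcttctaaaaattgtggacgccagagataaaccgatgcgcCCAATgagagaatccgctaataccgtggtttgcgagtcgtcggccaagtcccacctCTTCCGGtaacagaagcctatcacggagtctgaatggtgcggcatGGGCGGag
The capitals are the GC box GGGCGG in Mrpl32, Ostm1 and Tmem167, the TCF/LEF core CTTTGA in Mrpl32 and, read on the other strand, in Cxcl15, the TATA box TATAAA in Cxcl15, and CCAAT and, on the other strand, the ETS-type CCGGAAG in Tmem167. The stretches differ in composition, from 52% GC in Cxcl15 to 70.7% in Ostm1.

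Among bright members of signalling, Gng12, a gamma subunit of heterotrimeric G proteins and the brightest member, read 10.00, 9.91 and 10.23 in the controls and 9.42, 9.22 and 9.56 after mrhl siRNA. Its log2 difference was -0.65 (SE 0.162). A second Gng12 probe set of like level, 9.87 in the controls, had 0.01 (SE 0.191), so the probe sets of this gene disagreed. Camk2n1, an inhibitor of calcium/calmodulin-dependent kinase II, read 8.90, 8.46 and 8.96 in the controls and 8.11, 7.85 and 8.23 after mrhl siRNA. Its difference was -0.71 (SE 0.190), and a dim second probe set had 0.17 (SE 0.258). The serine/threonine phosphatase Ppm1a had a difference of -0.77 (SE 0.222), and its 7 other tested probe sets had a median of -0.09. The phosphatase Cdc14a had -0.67 (SE 0.164), with -0.04 and 0.12 in its other probe sets.

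Of immune, secreted and matrix genes, 3 were bright. Ifit2, an interferon-induced protein that binds RNA, read 9.53, 9.95 and 9.92 in the controls and 8.89, 9.13 and 9.51 after mrhl siRNA. The gap between the groups of Ifit2 was only 0.02, although its log2 difference was -0.62 (SE 0.208). The chemokine gene Cxcl15 read 7.15, 6.71 and 6.19 in the controls and 5.49, 5.83 and 5.66 after mrhl siRNA, a difference of -1.02 (SE 0.251). Within the replicate numbers Cxcl15 differed by -1.66, -0.87 and -0.53, and it was the only bright member at 2-fold or more. Mgp, the matrix Gla protein that inhibits calcification, had -0.64 (SE 0.160).

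Bright members of survival and protein turnover were Bcl2, Rnf144b, Mid2 and Hspa4l. The anti-apoptotic gene Bcl2 read 8.18, 8.31 and 8.57 in the controls and 7.40, 7.63 and 8.12 after mrhl siRNA, a difference of -0.63 (SE 0.218). The gap of Bcl2 was 0.06, and its 4 other tested probe sets lay between -0.25 and 0.11. Rnf144b and Mid2, both ubiquitin ligases, had -0.63 (SE 0.219) and -0.70 (SE 0.198). A brighter Rnf144b probe set, at 8.14 in the controls, had -0.10 and a dimmer one -0.93 with overlapping groups, and the other of Mid2 had -0.24. Hspa4l, a chaperone of the Hsp110 family, read 7.46, 7.66 and 7.86 in the controls and 7.04, 6.86 and 7.24 after mrhl siRNA. Its difference was -0.61 (SE 0.172), and each of its 4 other tested probe sets lay below 0, from -0.53 to -0.36, with groups that did not overlap in 2 of them.

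Further bright members included Rprd2, Celf4, Cpeb3, Dbp and Zfp54. Rprd2, which binds the tail of RNA polymerase II, read 7.15, 7.37 and 7.58 in the controls and 6.35, 6.22 and 6.76 after mrhl siRNA, a difference of -0.93 (SE 0.197). Its 7 other tested probe sets ran from -0.31 to 0.22. The splicing regulator Celf4 had -0.97 (SE 0.257), and its 2 others had -0.43 and -0.21. Cpeb3, which binds cytoplasmic polyadenylation elements, had -0.61 (SE 0.212), with its 3 others between -0.12 and -0.01. Dbp, a transcription factor of the circadian output, had -0.64 (SE 0.190), and its other probe set had -0.36. Zfp54, a zinc finger protein, had -0.62 (SE 0.206), with -0.29 in its brighter other probe set, where the groups did not overlap.

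The remaining bright members belong to channels, junctions and other functions. Cacna2d1, the alpha-2/delta-1 subunit of voltage-gated calcium channels, had -0.63 (SE 0.204), and its others had -0.35 and -0.49. Pkp2, a plakophilin of desmosomes, had -0.66 (SE 0.216), and its 2 brighter probe sets had -0.31 and -0.09. Syde2 had -0.60 (SE 0.233) with a gap of 0.04. Sh3bgrl2 had -0.70 (SE 0.169), and its other probe set had -0.45 with groups that did not overlap.

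**Figure D3:**
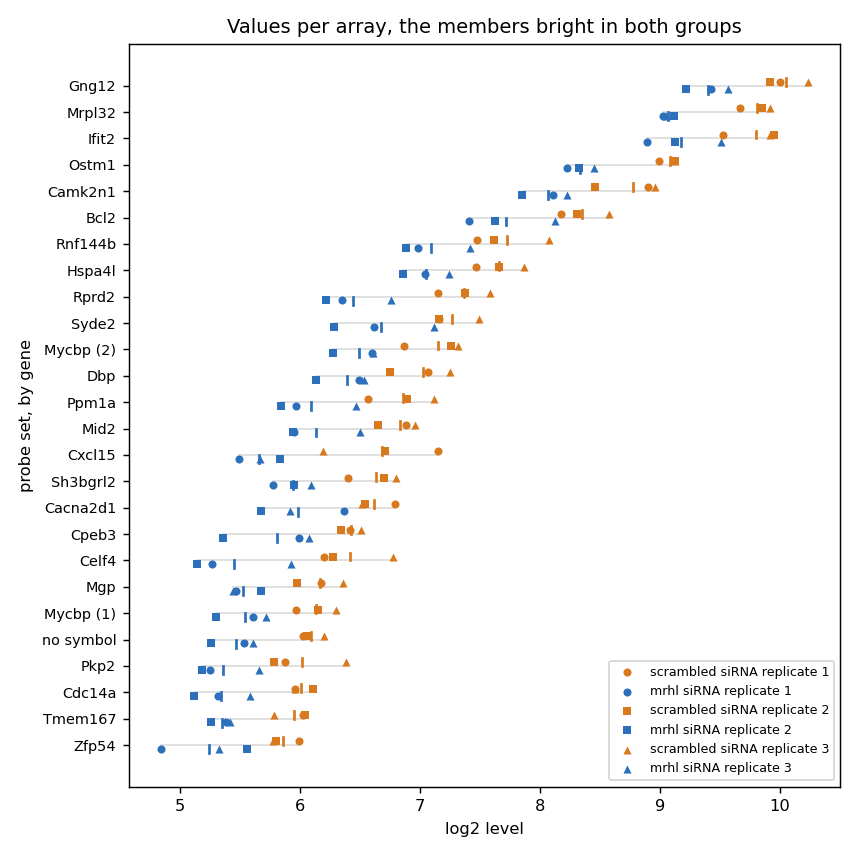
Log2 level on each array (horizontal axis) for the 26 members bright in both groups (vertical axis, ordered by control mean), with scrambled siRNA in orange, mrhl siRNA in blue, a marker shape for each replicate number and a short vertical line at each group mean. The groups are apart by the rule, with gaps from 0.02 for Ifit2 to 0.55 for Mrpl32. Replicate 3 is the highest mrhl siRNA array in 21 of the 26, and in 45.3% of all tested probe sets.

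The largest differences lay among members of low level. Hcn3, a hyperpolarization-activated channel, read 5.01, 4.84 and 4.41 in the controls and 3.48, 2.60 and 3.07 after mrhl siRNA, a difference of -1.70 (SE 0.261) at a linear signal of 26.9 against 8.28. Arg2, the mitochondrial arginase, read 4.06, 4.50 and 4.94 in the controls and 3.40, 3.33 and 2.92 after mrhl siRNA, a difference of -1.28. Its other tested probe set, of like level, had -0.55 (SE 0.286) with overlapping groups. At 2-fold or more stood 10 members, 8 of them with a symbol: Hcn3, Arg2, Ppargc1a, the makorin Mkrn1, the Rab11 effector Rab11fip4, the natural killer receptor Klre1, Tmem167 and Cxcl15. Slightly smaller were the myeloid receptor Trem2 with -0.99, Dgcr6 with -0.99, the cystine transporter Slc7a11 with -0.97, Bpifb9b with -0.97 and Fam166c with -0.95. Other probe sets of several of these genes read otherwise. The 5 brighter ones of Mkrn1, from 6.79 to 8.68 in the controls, had -0.32 to 0.06 (median -0.03), and the 2 brighter ones of Rab11fip4 had -0.04 and -0.03. The brighter probe set of Bpifb9b had 0.64, with groups that did not overlap and mrhl siRNA higher, and that of Trem2 had 0.33. Those of Dgcr6 had 0.08 and -0.08, that of Slc7a11 had -0.42 and that of Fam166c had -0.19. Of the members, 96 lay between the limit and -0.70, and the median over all 175 was -0.68, a 1.61-fold difference, against -0.03 over all tested probe sets.

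In all, 5 genes held 2 member probe sets each. Ppargc1a, the coactivator PGC-1alpha of mitochondrial genes, read 4.99, 4.70 and 4.97 in the controls and 4.01, 3.33 and 3.60 after mrhl siRNA through the first, a difference of -1.24. The second Ppargc1a probe set had -0.74, and another had -0.70 (SE 0.367) with overlapping groups. Rab30, a small GTPase of the Golgi, had -0.84 and -0.69, with levels of 5.23 and 4.99 in the controls. The second Cxcl15 probe set averaged 5.16 in the controls and read 4.59, 4.87 and 4.12 after mrhl siRNA, a difference of -0.64 with a gap of 0.13. Mycbp, a partner of Myc, had -0.65 and -0.59 through 2 bright probe sets, and others had -0.21 and 0.04. Tmem167 had -1.12 through a dim probe set and -0.60 through a bright one. The 2 brightest of its other 5 tested probe sets, at 10.67 and 9.39 in the controls, had 0.06 and -0.06. The remaining ones had -0.07, -0.23 and -0.38, and in the last 2 the groups did not overlap, with mrhl siRNA lower. Probe sets of 1 gene share arrays and may share transcripts, so they are not replicates.

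The genes of the members could be read through other probe sets in 94 of 135 cases. These 191 other tested probe sets had a median log2 difference of -0.12, from -1.20 to 0.64. Below 0 lay 134 of them (70.2%), where 56.2% of all tested probe sets did, and in 20 (10.5%) the groups did not overlap with mrhl siRNA lower, where 5.82% of all tested did. In 3 others of the 191, of Bpifb9b, Fbll1 and Slain1, the groups did not overlap with mrhl siRNA higher, by 0.64, 0.27 and 0.26. Over all tested probe sets, such groups made up 2.13% to 3.48% of the 5 parts by level. None of the 191 met the rule, since those that met it are members. All other probe sets lay below 0 in 52 genes, none did in 22, and the signs were mixed in 20. They come from the same 6 arrays and the same contrast, so these counts are descriptions too.

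For 75 of the 135 genes the brightest probe set was not a member. In these genes the brightest probe sets had a median of -0.12, and 51 of 75 lay below 0. The 6 genes with the brightest other probe sets follow. Cyp1b1, a cytochrome P450, had a member at 4.30 in the controls with -0.59, while its brightest probe set, at 12.56, had -0.19 with groups that did not overlap. Psma6, a proteasome subunit, had a member at 4.24 with -0.76, while 3 others between 10.17 and 11.27 had -0.09 to -8.82e-05. Prrc2c had -0.61 at 4.85 and 0.09 at 10.27, and Trp53bp1, a DNA damage response protein, had -0.65 at 4.40 and -0.30 at 9.51. Tmem167 and Gng12, given above, were the other two. The brightest other probe sets of Psma6, Prrc2c, Tmem167 and Gng12 thus read -8.82e-05, 0.09, 0.06 and 0.01, while Gng12 and Tmem167 each also have a bright member with a lower reading.

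In other genes a second probe set leaned the same way. Fzd6, a Wnt receptor, had a dim member with -0.68, and its 2 brighter probe sets, at 8.22 and 6.23, had -0.38 (SE 0.157) and -0.33 (SE 0.158), both with groups that did not overlap. Homer1, a scaffold of glutamate receptors, had -0.62 and 4 others between -0.49 and -0.13. The cGMP-dependent kinase Prkg1 had -0.78, and its other probe set had -0.47 with groups that did not overlap. Abhd13 had -0.69, with all 4 others below 0, from -0.49 to -0.09. Another probe set with non-overlapping groups, lower after mrhl siRNA, was found in 16 of the 94 genes. By probe set this was 20 of 191 (10.5%), where the share of all tested probe sets was 5.82%. A gene with several other probe sets has more occasions for this, and the share over all tested genes was not counted.

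**Figure D4:**
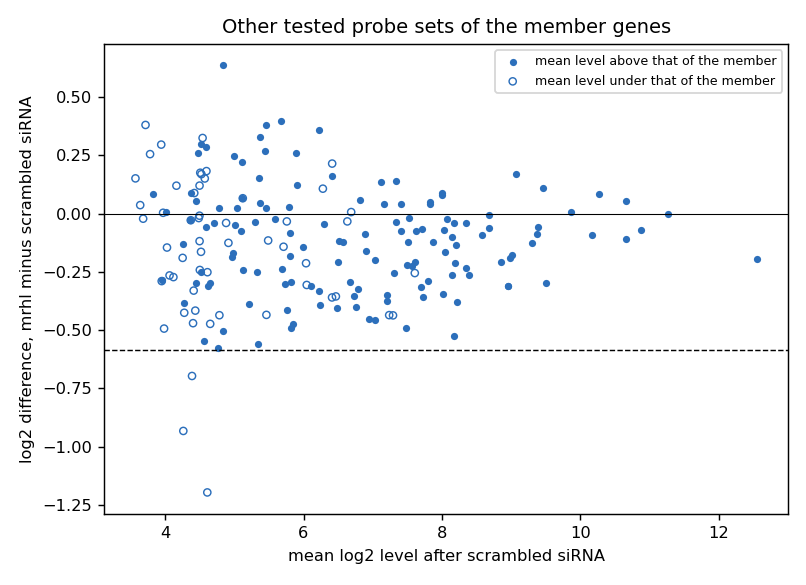
Log2 difference (vertical axis) against control level (horizontal axis) of the 191 other tested probe sets of the member genes, filled where the probe set was brighter than the member and open where it was dimmer. The dashed line is the 1.5-fold limit; 134 of 191 points lie below 0, and the 7 above a control level of 10 lie between -0.19 and 0.09.

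By class of gene symbol, the members were spread thinly. The classes held 57 of the 175 members, and no set test was made. Class shares here and below are not matched for level. The share meeting the rule was 1.61% in the dimmest part of the tested probe sets and 0.0592% in the brightest, so a class of dim probe sets can hold more members for that alone. Among 225 probe sets of ion channels, 4 were members (1.78%, against 0.510% of all tested probe sets with 1 symbol): Hcn3, the potassium channel Kcnq5 with -0.82, the sodium channel Scn2a with -0.80, and Cacna2d1. The other tested probe sets of Kcnq5 and Scn2a had 0.22 and 0.09. The class median was -0.03, the median of all named probe sets -0.04, and 0 channel probe sets were higher by the same limits. Among 238 probe sets of G protein-coupled receptors 5 were members (2.10%), the glutamate receptor Grm4 with -0.85, the serotonin receptor Htr1a with -0.72, the chemokine receptor Ccr2 with -0.68 and Fzd6 among them; none was bright, 1 probe set was higher by the same limits, and the class median was -0.0027. The other probe set of Htr1a, a brighter one, had 0.25, and that of Ccr2 had -0.25. Among 225 probe sets of chemokines, cytokines and their receptors 6 were members (2.67%), including both of Cxcl15, the TGF-beta family ligand Gdf3 with -0.66, and the receptors Tnfrsf9 and Tnfrsf18 with -0.65 and -0.63. In this class 2 probe sets were higher by the same limits, and the median was -0.03.

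Solute carriers and membrane pumps held 6 members of 634 probe sets (0.946%), among them Slc7a11, Slc5a9, Atp10a and Abca5, and 2 probe sets higher by the same limits. The matrix class held 4 of 235 (1.70%), the glypican Gpc6 with -0.88, fibromodulin (Fmod) with -0.69, Mgp and matrilin-4 (Matn4) with -0.62. The class as a whole had a median of 0.07, with 40% of its probe sets below 0, against 57.6% of all named probe sets. In it 5 were higher by the same limits, more than the 4 lower. The 2 brighter probe sets of Fmod had 0.40 and 0.38. Zinc finger genes held 5 of 787 (0.635%) and 2 higher, with a class median of -0.09. Protein kinases held 3 of 671, Prkg1, Wnk3 and Tssk5, and vesicle traffic and small GTPases 5 of 1035 (0.483%). RNA processing held 4 of 809 and the ubiquitin class 3 of 916, both near or under the share of all named probe sets. Homeobox and other transcription factors, chromatin, oxidative phosphorylation and cytosolic ribosomal proteins held 0 members among 633, 559, 190 and 108 probe sets. The share of all named probe sets was 0.510%, at which classes of these sizes hold few members or none.

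The Wnt class, named for the pathway that mrhl is known for, held 1 member, the dim Fzd6 probe set, among 173 (0.578%). Of these 173, 68 lay below 0 (39.3%, against 57.6% of all named probe sets), with a median of 0.05 against -0.04. The interferon class held 1 of 99, Ifit2, with a class median of -0.04. Genes of the unfolded protein response and the integrated stress response held 1 of 101, Slc7a11. This probe set read 5.42, 6.29 and 6.06 in the controls and 4.67, 5.16 and 5.04 after mrhl siRNA. Of the 101, 66 lay below 0 (65.3%, against the same 57.6%), with a median of -0.08. The 35 members without a single symbol had differences from -1.41 to -0.59, and 1 was bright. Another 7 members carried clone-type symbols, with differences from -0.88 to -0.61.

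Within the replicate numbers, members had median differences of -0.66, -0.78 and -0.65 for numbers 1, 2 and 3, where all tested probe sets had -0.0017, -0.09 and -0.02. The 3 differences within replicate numbers all lay below 0 in every member, which the rule fixes, and in 23.4% of all tested probe sets. A difference of at least 1.5-fold was seen within number 1 in 109 members, within number 2 in 135 and within number 3 in 104, and within every number in 31, of which 8 were bright. The lowest mrhl siRNA array was replicate 2 in 83 members (47.4%), as it was in 40% of all tested probe sets. Of the 26 bright members, replicate 2 was lowest in 18. Replicate 3 was the highest mrhl siRNA array in 21 of the bright members, and in 45.3% of all tested probe sets. Scrambled siRNA replicate 3 was the highest control in 20 of the bright members, and in 37.3% of all tested probe sets. The order of arrays within a group was not part of the rule.

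**Figure D5:**
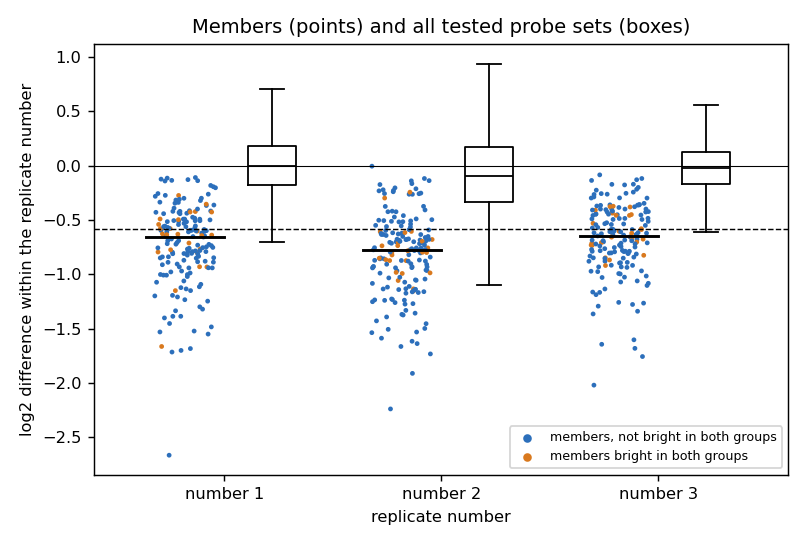
Log2 difference within each replicate number (vertical axis) for the 175 members as points, with a bar at their median, orange where bright in both groups. The boxes beside them show all tested probe sets as quartiles, with whiskers to the last value within 1.5 interquartile ranges; number 2 has the lowest member median, -0.78, and every member lies below 0 because the groups do not overlap.

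Members just inside the size limit were Cyp1b1, Efcab2 and Arhgap27, each with a log2 difference of -0.59. Just outside it lay a probe set with no symbol, one of the phosphatase gene Inpp1 and one of the mannose receptor gene Mrc1, each with -0.58. At the level limit, 2 members with no symbol lay just inside, with mean levels of 3.62, and just outside lay one with no symbol at 3.61 and the nuclear receptor gene Nr5a1, whose level was 3.60 and whose difference was -0.74. Adding 16 units to the linear signals before taking logs, which shrinks differences at low level, left 16 of the 175, and 39 higher; of the 16, 11 were bright. With 64 units added, 12 were higher and 5 members were left: Rprd2, Mrpl32, Ostm1, Camk2n1 and Gng12. Each array left out in turn moved the count by more than 1.5 times. It then lay between 272 without mrhl siRNA replicate 2 and 929 without mrhl siRNA replicate 3. A group of fewer arrays meets the non-overlap condition more easily, and why the counts differed with the array left out was not tested.

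Features that the rule did not use were read for the 135 genes, all found in the RefSeq gene table of GRCm38.p6. The median genomic length was 30235 bases for member genes and 21488 bases for the 14788 tested genes with an entry. For the 24 bright member genes it was 45106 bases, against 23256 for the genes with a probe set at or above the median level. Of the member genes 130 were protein coding (96.3%, against 93.9% of tested genes), and no pair of them were next to each other in the order of protein coding genes. By chromosome, the largest number lay on chromosome 9, 12 genes (8.89%, where 5.65% of tested genes lie). Chromosome 3 followed with 11 (8.15%, where 4.90% lie). Others held less than their share, among them chromosome 7 with 4.44% against 7.80% and chromosome 11 with 6.67% against 8.42%. These shares were not tested.

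Promoter windows of 300 bases, 250 before and 50 after the start, were found for 106 of the 135 genes, in 144 windows. Their median GC content was 57.0%, and that of 15020 windows of tested genes was 59.7%. Both strands were searched for 7 motifs, given with the share of member windows and of windows of all tested genes. The GC box GGGCGG was in 50% and 57.1%, and CCAAT in 30.6% and 37.5%. TATAAA was in 6.94% and 8.40%, the TCF/LEF core CTTTGA in 13.9% and 12.6%, and the E-box CACGTG in 6.94% and 9.15%. The ETS-type CCGGAAG was in 9.03% and 14.8%, and the CRE TGACGTCA in 1.39% and 2.70%, that is in 2 windows, of Clasp2 and Ppm1a. These motifs can overlap one another, and a match only says that the letters are present.

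Markers and control rows were set beside these results. None of 5 germ line markers, Ddx4 and Dazl among them, had a tested probe set, though all 5 had one on the array. A tested probe set was found for 12 of 15 markers of undifferentiated spermatogonia and 6 of 8 of differentiating spermatogonia. Of these only 7 and 2 lay above the median level, and the median differences of the 2 lists were -0.05 and -0.09. Of 11 Sertoli cell markers 1 was a member, Dhh, with -0.63 (SE 0.252) and -0.02 in its other probe set; the mean level of that list was 6.58 to 6.75 in the controls and 6.51 to 6.66 after mrhl siRNA. All 8 markers of peritubular myoid cells and fibroblasts lay above 0, with a median of 0.27 and array means of 9.32 to 9.89 in the controls and 9.75 to 9.87 after mrhl siRNA. The 18S rRNA rows averaged 3.76, 6.50 and 5.52 in the controls and 3.42, 3.37 and 5.72 after mrhl siRNA (two-sided exact permutation test, p = 0.3, where 0.1 is the smallest p that 3 against 3 arrays allow). The 3' minus 5' signal of beta-actin was 0.51 ± 0.11 and 0.42 ± 0.03 (SD, n = 3 each), an exact permutation p of 0.2. The part of these measures in the members' differences was not tested.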

How the data were processed

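The deposited values are log2 expression values, 1 per probe set and array, with negative values among them. Per the submitters' processing notes the authors used GCOS and PLIER; their version, their settings and any scaling across arrays were not given in the sources used here. Array medians differed by 0.11, and the values were used as deposited. Of 45101 rows, 64 control rows were left out. Symbols came from the platform's probe table (34945 probe sets with 1 symbol, 932 with several, 9160 with none), and 34741 matched the mouse gene table of GRCm38.p6, with 0 symbols updated.

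Standard errors and adjusted p-values (Benjamini-Hochberg, threshold 0.05) are from limma 3.58.1 in R 4.3.3 over all tested probe sets, fitted without a block and tested on simulated data. The replicates are called biological in the titles. Deviations from group means correlated at 0.534, 0.201 and 0.567 for equal replicate numbers and from -0.518 to 0.0684 for unequal ones. The numbers were therefore read as pairs, from the data and the 3 independent experiments of the design text. The standard errors given here do not use this pairing. With the block they were smaller in most members, for example 0.117 instead of 0.257 for Celf4. In fewer members they were larger, for example 0.270 instead of 0.252 for Arg2. Alternatives were quantile normalization, equal array medians, offsets of 16 and 64, other level and size limits, the replicate number as a block, limma with trend and robust options, single probe sets per gene, and each array left out in turn; leaving out pairs of arrays, and the block with the trended, robust model, were added after seeing the data.

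The members, gene classes and tests were chosen with earlier results of these data known. Genes were named by rule: the 15 most negative, the 12 brightest, genes with several members, those at the limits, up to 4 per class, the 6 with the brightest other probe sets and the 4 with the largest difference over spread. Bright members, further members of classes and genes picked for their other probe sets (Fbll1 among them) were named after their values were seen, and the class patterns were corrected then where they matched unrelated symbols (Tmem167, Camk2n1, Cpeb3, Mycbp). Figures were drawn with matplotlib 3.10.9.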

Additional observations from a re-analysis of the deposited data

How the results depend on the processing

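The count of 175 was 171 after quantile normalization (156 of the 175 among them) and 175 with equal array medians (162 of them). It was 16 and 5 with offsets of 16 and 64, 721 without the level filter, 38 with the filter at the median level, 10 at 2-fold and 60 as genes read through their brightest probe set. With the replicate block, as the form of the rule that asks for a difference below 0 within each replicate number, it was 358. Each array left out in turn gave between 272 and 929, with 122 to 150 of the 175 kept. The counts were 584, 352 and 280 without scrambled siRNA replicates 1, 2 and 3, and 387, 272 and 929 without mrhl siRNA replicates 1, 2 and 3. Higher by the same limits were 616, 320 and 351, and 354, 187 and 667, in the same order. With offsets of 16 and 64, 39 and 12 were higher. More were thus higher than lower without scrambled siRNA replicate 1 or 3 and with either offset. Without both arrays of a number it was 363 to 772. The median difference of the members was -0.40 and -0.17 with offsets of 16 and 64, and -0.77 to -0.66 with an array left out. The limma count stayed at 0 with the replicate block, quantile normalization, no filter, the trended and robust model and each array left out. With the block and the trended, robust model it was 2, neither of them a member. Of 820 values of 82 named members under these alternatives, 116 moved by more than the spread within groups, all with an offset. In sign 0 changed, which the rule fixes for the offsets and for an array left out, since the groups do not overlap. The number of arrays, and the low signal of most members, limit the precision.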

Other observations

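Members that met the limits under quantile normalization, with equal array medians and with each array left out in turn numbered 57, a set chosen after its values were seen and given here as values only. Of these, 43 had a single symbol and 9 were bright: Cxcl15, Celf4, Rprd2, Ppm1a, Mrpl32, Ostm1, Camk2n1, Mid2 and Sh3bgrl2. Gng12, Bcl2 and Ifit2 met the limits with an offset of 16 but not with each array left out.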
